A study of Homo sapiens with 4 samples.

Results

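A set of 10 BMP pathway and ID genes was followed in RNA of TE5, a human cell line from squamous cell carcinoma of the oesophagus, with and without overexpression of the transcription factor ETS1. The genes are the ligands BMP4 and BMP7, the receptors BMPR1A and BMPR2, the signal-carrying SMAD1 and SMAD5, the inhibitory SMAD6, and the target genes ID1, ID2 and ID3. They were chosen by name, with earlier results of these data known, and all 10 of 10 are among the 55764 gene names in the deposited table. In 2 libraries the cells stably carried a lentiviral CMV-promoter vector that expresses human ETS1, and the cells of the 2 control libraries had the empty backbone and are otherwise labelled wild type. The CMV promoter is viral and does not follow the cell's own control of the gene. Whether the selected cells were a pool or a clone, and whether libraries 1 and 2 of a group came from separate infections, is not given in the sources used here, so p-values measure the spread between these libraries, which may be technical.

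Bone morphogenetic proteins (BMPs) are secreted ligands of the TGF-beta superfamily. They bind pairs of type I and type II receptor kinases, which phosphorylate SMAD1, SMAD5 and SMAD9, and these enter the nucleus with SMAD4 to act on target genes. ID1, ID2 and ID3 are classical targets. They encode helix-loop-helix proteins without a DNA-binding region, which hold E proteins and other bHLH factors away from DNA. In squamous epithelium BMP signals and ID proteins are known for their part in the balance between growth and differentiation.

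Of the 10 genes, 5 rose with ETS1 (ID2, SMAD5, BMPR2, SMAD1 and BMPR1A), 1 fell (BMP7) and 4 did not pass (BMP4, SMAD6, ID1 and ID3). The largest change was that of ID2, 1.57-fold, and the smallest among those called was that of BMPR1A, 1.23-fold. The test was limma on log2(FPKM + 1), with Benjamini-Hochberg adjustment over the 14306 genes whose mean FPKM (fragments scaled to gene length and library size) was at least 1, and a call means an adjusted p under 0.05. All 10 genes were above that minimum. The authors' deposited table, in which 25.3% of 15683 genes are higher and 25.9% lower (51.2% in all) at an adjusted p under 0.05, also has 5 of the 10 genes higher and 1 lower. Over all tested genes 30.7% were called higher and 28.4% lower, or 59.1% in either direction, so 6 calls among 10 genes is near the background. The median log2 change of the 10 genes was 0.17, beside 0.016 over all tested genes. Both ETS1 values lay outside the control range for 9 of the 10 genes, 7 higher and 2 lower. The same was the case for 82.0% of all tested genes, with 43.1% higher and 38.9% lower. With 2 libraries against 2, an exact two-sided permutation test cannot go below p = 0.333, and each of the 9 genes whose groups did not overlap had that value. In bulk RNA, a change in the share of cells that express a gene and a change per cell cannot be told apart.

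ETS1 itself had 0.491 and 0.509 FPKM in the controls and 1.84 and 1.87 FPKM in the ETS1 libraries, a 3.71-fold rise (limma adjusted p = 0.000704) in the direction of the labels. Its log2 change was 0.93 with the pseudocount of 1, which understates low genes, and 1.87 with voom on recovered reads. By mean FPKM it lay at percentile 4.24 of the tested genes. Reads recovered from the FPKM steps came to 40356540 to 57269797 per library, with the ETS1 libraries the deeper ones. Of 8 squamous markers, SOX2 alone reached 1 FPKM in a library. Each control library listed KRT5, KRT14 and TP63 at 0, and no ETS1 library exceeded 0.0165 FPKM for any of the 3, so these defining squamous markers were absent or nearly so. Summed squamous markers ran from 2.81 to 3.22 FPKM in the controls and from 3.62 to 3.92 with ETS1. SOX2 made up nearly all of this, at 2.72 and 3.13 against 3.52 and 3.82 FPKM (limma adjusted p = 0.0301), while KRT13 had 0.0935 and 0.0933 against 0.0659 and 0.0486 FPKM. Summed simple epithelial markers ran from 16.1 to 16.3 and from 16.8 to 16.9 FPKM, and fibroblast markers from 2.13 to 2.28 and from 3.09 to 3.19 FPKM. Behind the near-equal simple epithelial sums, KRT8 rose 1.68-fold (limma adjusted p = 0.000591) and KRT18 fell by 0.29 on the log2 scale (limma adjusted p = 0.00223). CDH1, untested, went from 0.571 and 0.567 FPKM to 1.08 and 0.916 FPKM, and EPCAM had 1.37 and 1.36 against 0.915 and 1.12 FPKM (limma adjusted p = 0.0525). KRT19, also on the simple epithelial list, was at most at 0.0224 FPKM in each library. Of the 6 fibroblast markers COL1A1 alone reached 1 FPKM, at 2.17 and 2.06 against 2.81 and 2.88 FPKM (limma adjusted p = 0.00599). LUM (0.00822 and 0.0376 against 0.168 and 0.141 FPKM), COL3A1 (0.0547 and 0.0200 against 0.0694 and 0.117 FPKM) and PDGFRB (0.0312 and 0.00953 against 0.0440 and 0.0570 FPKM) were also higher in both ETS1 libraries, at low levels, while COL1A2 and DCN were at most at 0.0122 FPKM. Of the immune markers, PTPRC was at most at 0.0117 FPKM, CD68 at 0.0414 FPKM and CD3E at 0.0696 FPKM. The 3 of 4 endothelial markers that were found by name (PECAM1 was not) summed to at most 0.0789 FPKM in each library. The part of these marker shifts in the results was not tested.

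**Figure D1:**
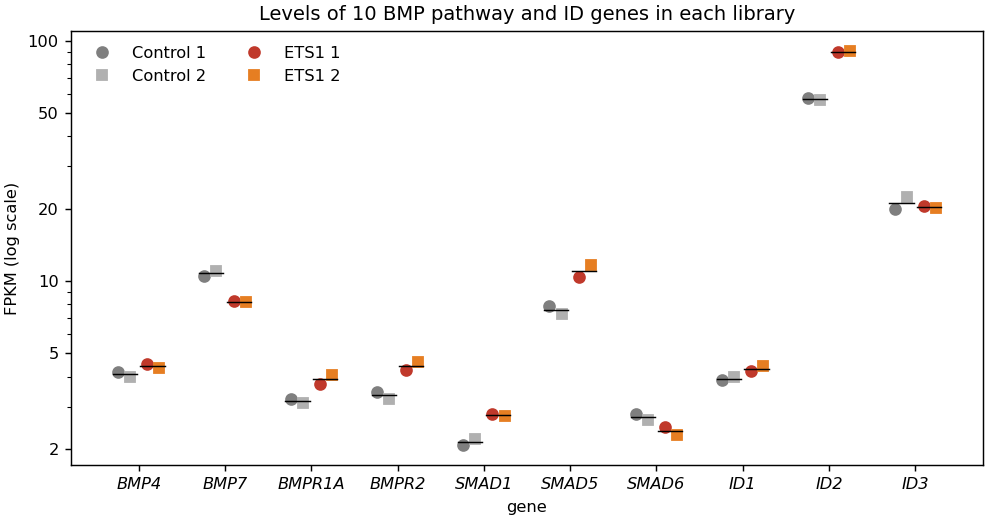
FPKM of each of the 10 genes (vertical log axis) in the 2 control libraries (grey) and the 2 ETS1 libraries (red and orange), with black lines at the group means. ID2 stands highest, at 56.5 to 58.0 FPKM in the controls and 89.7 to 90.7 FPKM with ETS1, and ID3 is the gene whose groups overlap.

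The levels, which FPKM gives per length, spanned a wide range. In the controls the order of the mean FPKM was ID2, ID3, BMP7, SMAD5, BMP4, ID1, BMPR2, BMPR1A, SMAD6 and SMAD1. ID2 lay at percentile 95.9 of the tested genes by mean FPKM and ID3 at percentile 82.2, while SMAD1 and SMAD6 lay at percentiles 22.8 and 23.7. Neighbours in that order were close: BMP4 had 3.99 to 4.19 FPKM and ID1 3.87 to 3.98 FPKM in the controls, and BMPR2 had 3.23 to 3.46 FPKM and BMPR1A 3.11 to 3.22 FPKM. With ETS1 the order changed in 3 places, as SMAD5 passed BMP7, BMPR2 passed ID1 and SMAD1 passed SMAD6. BMP4 (4.34 to 4.54 FPKM), BMPR2 (4.25 to 4.59 FPKM) and ID1 (4.21 to 4.42 FPKM) then overlapped.

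The ligands went different ways. BMP7, a ligand that acts through type I receptors of the BMP and activin classes (minus strand of chromosome 20, 57168748 to 57266629, GENCODE 29 on GRCh38), had 10.5 and 11.0 FPKM in the controls and 8.24 and 8.17 FPKM with ETS1. Both ETS1 libraries were below both controls, with 2308 and 2629 control reads beside 2562 and 2506 reads from the deeper ETS1 libraries. The log2 change was -0.35 with a standard error of 0.035 (limma adjusted p = 0.00159). It kept its direction and its call under all 17 alternatives tried, with a change between -0.41 and -0.33. BMP4, a ligand used throughout the patterning of the embryo (chromosome 14, 53949736 to 53958761, minus strand), had 4.19 and 3.99 FPKM in the controls and 4.54 and 4.34 FPKM with ETS1. Its groups did not overlap, but the log2 change of 0.096 did not pass (limma adjusted p = 0.123, 95% interval -0.020 to 0.21). It passed under 1 of 16 alternatives, with a length and GC trend removed (0.17, limma adjusted p = 0.0167). The ratio of BMP4 to BMP7 within a library, which no scaling between libraries can move, was 0.398 and 0.363 in the controls and 0.550 and 0.532 with ETS1. BMP7 remained the more abundant transcript of the pair in each library.

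The receptors both rose. BMPR2, a type II receptor for BMPs (chromosome 2, 202376936 to 202567751, plus strand), had 3.46 and 3.23 FPKM in the controls and 4.25 and 4.59 FPKM with ETS1. The ETS1 libraries lay above the controls, with means 1.32-fold apart and a log2 change of 0.32 (standard error of 0.054, limma adjusted p = 0.00701). BMPR1A, a type I receptor kinase also called ALK3 (chromosome 10, 86756601 to 86932838, plus strand), had 3.22 and 3.11 FPKM in the controls and 3.72 and 4.07 FPKM with ETS1. Its log2 change was 0.23 with a standard error of 0.053 (limma adjusted p = 0.0172). The second ETS1 library was the higher one for both receptors. BMPR1A lost the call in 5 of 16 alternatives: with no filter (limma adjusted p = 0.0675), with a length trend removed (0.086, limma adjusted p = 0.193), with a length and GC trend removed, without control library 2 (limma adjusted p = 0.0566) and without ETS1 library 2 (limma adjusted p = 0.0926). BMPR2 stood at 0.17 with a length trend removed (limma adjusted p = 0.0387), and lost the call in 1 alternative, once a trend on length and GC was removed. The ratio of BMPR2 to BMPR1A was 1.08 and 1.04 in the controls and 1.14 and 1.13 with ETS1.

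Of the SMADs that carry the signal, SMAD5 and SMAD1 rose, while the groups overlapped for SMAD9 (limma adjusted p = 0.184), given further below. SMAD5 (chromosome 5, 136132845 to 136188747, plus strand) had 7.84 and 7.31 FPKM in the controls and 10.4 and 11.7 FPKM with ETS1. The mean was 1.45 times the control mean, and the log2 change was 0.49 with a standard error of 0.066 (limma adjusted p = 0.00358). SMAD5 kept its call under all 17 alternatives, with a change between 0.25 and 0.56. Its close relative SMAD1 (chromosome 4, 145481194 to 145558079, plus strand) had 2.08 and 2.21 FPKM in the controls and 2.80 and 2.74 FPKM with ETS1. The log2 change was 0.26 with a standard error of 0.050 (limma adjusted p = 0.00978). It lost the call in 3 of 16 alternatives: with the median of its chromosome removed (0.15, limma adjusted p = 0.0611), without ETS1 library 1 (0.25, limma adjusted p = 0.0575), and after removal of a length and GC trend. SMAD5 was the more abundant of the pair, at 3.77 and 3.31 times SMAD1 in the controls and 3.70 and 4.26 times with ETS1, ranges that overlap (exact permutation p = 0.667). Exons of SMAD5 share 610 bases with the antisense gene SMAD5-AS1, which was at most at 0.0747 FPKM in each library. SMAD1 and ID2 also share 376 and 38 exon bases with antisense genes of GENCODE 29 that were not matched to rows of the table. The use of strand in counting is not given in the sources used here, so reads of such partners cannot be told apart.

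SMAD6, an inhibitory SMAD that blocks SMAD1 and SMAD5 and is itself switched on by BMP signals (chromosome 15, 66702228 to 66782848, plus strand), did not pass. It had 2.79 and 2.64 FPKM in the controls and 2.46 and 2.28 FPKM with ETS1, from 414 to 518 reads per library. Both ETS1 libraries were below both controls, with a log2 change of -0.14 (limma adjusted p = 0.0815, 95% interval -0.28 to 0.0026). It passed under quantile normalization (-0.18, limma adjusted p = 0.0432) and with voom, limma's weighting for counts, on recovered reads (-0.21, adjusted p = 0.0473), a fit that called 31.8% of genes higher and 31.9% lower. The tested genes of chromosome 15 as a whole had a median of -0.23, and with that median removed the sign of SMAD6 turned (0.090, limma adjusted p = 0.207). The summed FPKM of SMAD1 and SMAD5 was 3.55 and 3.61 times that of SMAD6 in the controls and 5.34 and 6.31 times with ETS1, without overlap.

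The upstream sequence of SMAD6 is shown because it holds the palindromic SMAD box GTCTAGAC, in capitals. These are the 250 bases before its RefSeq start on GRCh38.p14, chr15:66701986-66702235, plus strand, and the box begins 12 bases before the start.
SMAD6: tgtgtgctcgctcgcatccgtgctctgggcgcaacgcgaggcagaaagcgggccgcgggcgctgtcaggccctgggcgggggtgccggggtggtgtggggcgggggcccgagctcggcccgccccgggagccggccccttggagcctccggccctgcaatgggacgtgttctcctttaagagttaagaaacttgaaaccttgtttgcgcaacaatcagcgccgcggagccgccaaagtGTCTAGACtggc
The box (the same letters on both strands) was found in 0.182% of 35116 such RefSeq windows, and among the 15 windows of the 9 genes that have one (BMP7 had none), in that of SMAD6 alone. The BMP response element made of GGCGCC, any 5 bases and GTCT, searched on both strands, was in 0.0769% of all windows and in none of the 15.

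ID2 showed the largest change of the 10 genes. ID2 (chromosome 2, 8678845 to 8684453, plus strand) had 58.0 and 56.5 FPKM in the controls and 89.7 and 90.7 FPKM with ETS1. The 2 libraries of each group lay close together and far from the other group, from 5171 and 5508 reads against 11347 and 11325 reads. The log2 change was 0.65 with a standard error of 0.027 (limma adjusted p = 0.000439, 95% interval 0.57 to 0.72), which is larger than that of 97.8% of tested genes. ID2 kept its call under all 17 alternatives, with a change between 0.56 and 0.79. For ID2 the authors' deposited table has a log2 fold change of 0.63 (adjusted p = 2.93e-43).

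The other 2 ID genes did not pass. ID1 (chromosome 20, 31605283 to 31606515, plus strand) had 3.87 and 3.98 FPKM in the controls and 4.21 and 4.42 FPKM with ETS1, with both ETS1 libraries above both controls. Its log2 change was 0.11 (limma adjusted p = 0.0822, 95% interval -0.0024 to 0.22). It was read 193 to 309 times per library, the fewest of the 10 genes, so that counting alone gives a CV of 5.69% to 7.20%. ID1 did pass with a length trend removed (0.21, limma adjusted p = 0.0133), a fit that called 26.9% of genes higher and 29.1% lower. Removal of a length and GC trend also left it past the threshold (0.27, limma adjusted p = 0.00344). ID3 (chromosome 1, 23557918 to 23559794, minus strand) had 19.9 and 22.4 FPKM in the controls and 20.5 and 20.2 FPKM with ETS1. The groups overlapped, since the ETS1 values lay between the controls, with a log2 change of -0.047 (limma adjusted p = 0.519, 95% interval -0.20 to 0.11). It passed as lower without control library 1 (-0.13, limma adjusted p = 0.0363). In the authors' deposited table ID1 and ID3 have log2 fold changes of 0.081 and -0.071, with adjusted p of 0.627 and 0.433.

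The make-up of ID transcripts differed between the groups. ID2 gave 71.0% and 68.2% of the summed FPKM of ID1, ID2 and ID3 in the controls and 78.4% and 78.6% with ETS1. The ratio of ID2 to ID3 within a library was 2.92 and 2.53 in the controls and 4.37 and 4.49 with ETS1, and that of ID2 to ID1 was 15.0 and 14.2 against 21.3 and 20.5. Both ratios were without overlap (exact permutation p = 0.333 each, the smallest possible). ID4, the remaining member of the family, rose 2.09-fold, from 25.6 and 23.2 FPKM to 48.0 and 54.0 FPKM, with a log2 change of 1.03 and a standard error of 0.074 (limma adjusted p = 0.000791). Over all 4 ID genes the summed FPKM was 107.4 and 106.1 in the controls and 162.4 and 169.4 with ETS1. In that sum the share of ID3 went from 18.5% and 21.1% to 12.6% and 11.9%, while ID2 stayed at 53.3% to 55.2% in the 4 libraries.

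**Figure D2:**
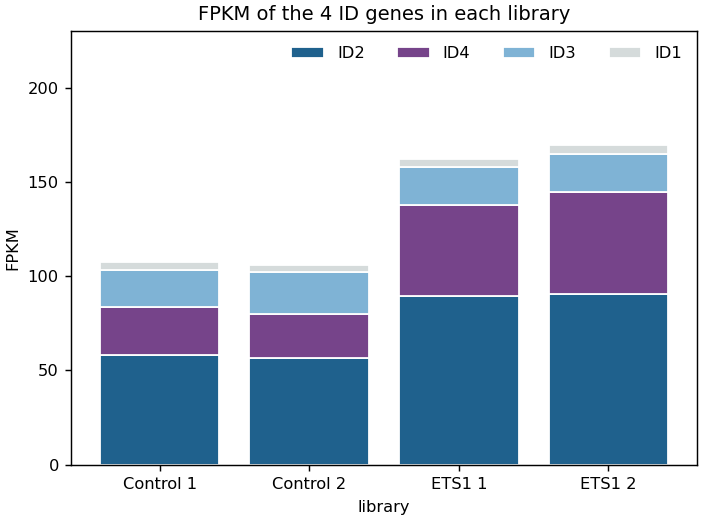
FPKM (vertical axis, from 0) of ID2, ID4, ID3 and ID1 stacked for each library (horizontal axis). The stacks reach 106.1 and 107.4 FPKM in the controls and 162.4 and 169.4 FPKM with ETS1, with the added height in ID2 and ID4.

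The sequences before the ID genes and SMAD5 are shown because ETS factors bind sites around the core GGAA, and these genes did or did not move with ETS1. Each line is the 250 bases before the RefSeq start on GRCh38.p14 (ID1 chr20:31605039-31605288, plus strand; ID2 chr2:8681806-8682055, plus strand; ID3 chr1:23559502-23559751, minus strand; SMAD5 chr5:136132595-136132844, plus strand), written 5′ to 3′ on the gene's strand. Capitals mark GGAA or its reverse complement TTCC.
ID1: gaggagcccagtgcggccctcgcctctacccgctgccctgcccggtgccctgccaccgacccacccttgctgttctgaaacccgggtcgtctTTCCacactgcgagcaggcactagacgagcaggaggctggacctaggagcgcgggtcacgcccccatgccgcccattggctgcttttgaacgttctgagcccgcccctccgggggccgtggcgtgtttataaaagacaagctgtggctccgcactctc
ID2: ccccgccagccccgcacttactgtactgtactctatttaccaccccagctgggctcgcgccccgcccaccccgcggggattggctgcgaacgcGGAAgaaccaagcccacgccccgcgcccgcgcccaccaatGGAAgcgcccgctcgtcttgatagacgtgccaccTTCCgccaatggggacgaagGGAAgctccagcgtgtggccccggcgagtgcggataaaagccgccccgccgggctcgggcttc
ID3: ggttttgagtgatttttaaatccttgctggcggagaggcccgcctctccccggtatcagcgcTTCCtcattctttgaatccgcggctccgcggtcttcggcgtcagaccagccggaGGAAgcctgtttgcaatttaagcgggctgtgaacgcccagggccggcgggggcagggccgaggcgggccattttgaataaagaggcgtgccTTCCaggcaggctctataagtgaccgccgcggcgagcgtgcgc
SMAD5: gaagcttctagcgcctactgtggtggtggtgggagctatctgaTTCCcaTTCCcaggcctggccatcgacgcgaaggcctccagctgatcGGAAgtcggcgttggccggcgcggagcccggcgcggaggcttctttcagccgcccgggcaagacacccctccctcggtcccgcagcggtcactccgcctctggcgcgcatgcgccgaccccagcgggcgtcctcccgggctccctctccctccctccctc
The core was found 4 times before ID2, 3 times each before ID3 and SMAD5 and once before ID1. Before BMPR1A it was found 6 times, before BMPR2 once and before SMAD6 0 times, with 2 to 5 matches in the windows of BMP4 and 0 to 5 in those of SMAD1. It is a short motif, found in 92.7% of all 35116 windows with a median of 3 matches. A relation between these counts and the changes was not tested. The longer ETS site CCGGAAGT, which contains the core, was in 3.42% of all windows and in none of the 15 windows of these genes. The element GGCGCC, a GC-rich site of SMAD1 and SMAD5, was in 16.4% of all windows. It was found before BMPR2, in 1 of 3 windows of BMP4 and in 2 of 5 windows of SMAD1, and in none of the windows of the ID genes. A match is a description of letters, and no binding was measured here.

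The genes that rose beside ID2 are long and low in GC. Tested genes that are long, or low in GC, had a higher median change than all tested genes. The lengths inferred from the FPKM were 6061 bases for SMAD1, 8790 for SMAD5, 11377 for BMPR1A and 11912 for BMPR2, beside 1235 for ID1, 1799 for ID3 and 2206 for ID2. The GC content of the longest transcript was 36.9% to 40.6% for these receptors and SMADs and 53.3% to 58.6% for the 3 ID genes. Among the 4122 tested genes of at least 6000 bases, 46.2% were called higher and the median log2 change was 0.12. Among the 2971 tested genes with a transcript GC of at most 42%, 49.0% were called higher and the median was 0.16. With a length and GC trend removed in each library, over 12015 genes of which 29.3% were called higher and 31.5% lower, the change of SMAD5 was 0.25 (limma adjusted p = 0.00562) and still passed. In that fit SMAD1 (0.11, limma adjusted p = 0.137), BMPR2 (0.056, limma adjusted p = 0.241) and BMPR1A (0.028, limma adjusted p = 0.591) did not pass. ID2 had a change of 0.76 and BMP7 of -0.36 there, and both passed. Both limits on length and GC were set after the values were seen, and the cause of these trends was not tested.

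**Figure D3:**
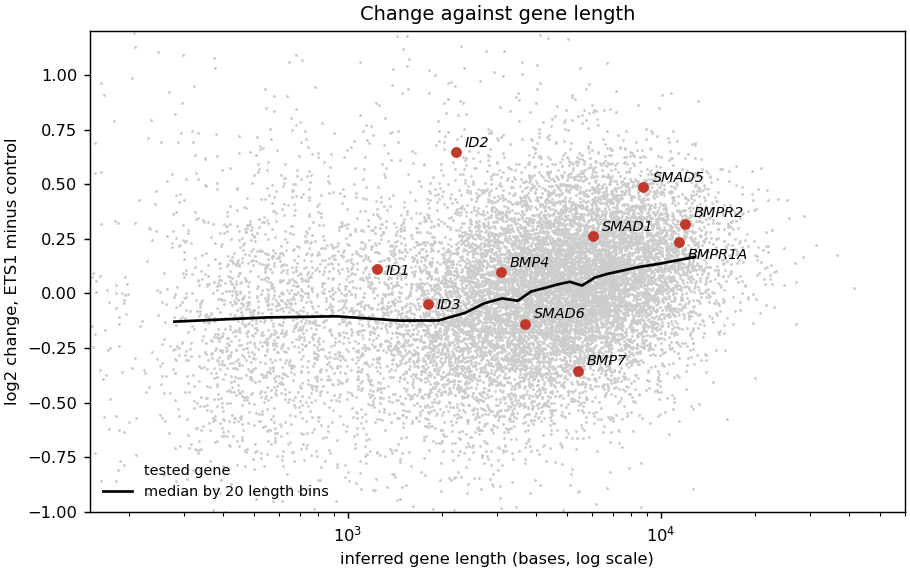
log2 change, ETS1 minus control (vertical axis), against the inferred gene length in bases (horizontal log axis) for the tested genes (grey), with the median in 20 length bins (line) and the 10 genes (red). SMAD1, SMAD5, BMPR1A and BMPR2 lie at 6061 to 11912 bases, where the line is above 0, and ID2 lies at 2206 bases, far above the line; 336 tested genes lie outside the axes.

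**Figure D4:**
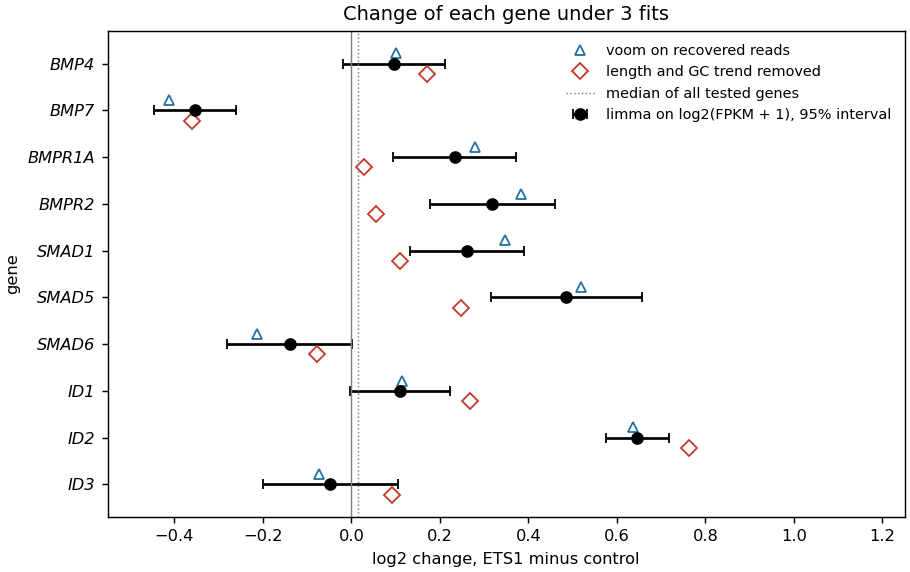
log2 change, ETS1 minus control (horizontal axis), of each gene from limma on log2(FPKM + 1) with its 95% interval (black), from voom on recovered reads (blue triangles) and after removal of a length and GC trend (red diamonds), with the median of all tested genes dotted. ID2, SMAD5 and BMP7 were called in all 3, while BMPR1A and BMPR2 move to 0.028 and 0.056 once the trend is removed.

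The wider pathway was read from 6 lists of 80 genes in all, some of them in more than 1 list. Of these, 46 were tested, with 17 called higher and 13 lower, and a median log2 change of 0.098, beside 30.7% higher, 28.4% lower and a median of 0.016 over all tested genes. Among the other ligands 2 of 13 were tested. BMP6, a ligand related to BMP7, fell from 2.02 and 2.43 FPKM to 1.46 and 1.51 FPKM (-0.37, limma adjusted p = 0.0132), a call lost with no filter (limma adjusted p = 0.0666) and without ETS1 library 1 (limma adjusted p = 0.0535). With voom on recovered reads its change was -0.60 (adjusted p = 0.00116). GDF6, a ligand under the minimum and named after its values were seen, had 0.561 and 0.666 FPKM against 1.14 and 1.30 FPKM, and in the authors' deposited table its log2 fold change is 0.87 (adjusted p = 7.39e-05). Also under the minimum and higher were GDF7 (0.368 and 0.385 against 0.865 and 0.750 FPKM) and BMP2 (0.178 and 0.195 against 0.411 and 0.426 FPKM). INHBA (0.0918 and 0.0750 against 0.464 and 0.485 FPKM) was higher too, while BMP3 (0.250 and 0.311 against 0.164 and 0.160 FPKM) was lower.

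Among the other receptors and co-receptors, 2 of 6 tested rose and 3 fell (30.7% and 28.4% over all tested genes). The 3 that fell were RGMA (-0.45), RGMB (-0.35) and NEO1 (-0.22), the first 2 being membrane-anchored BMP co-receptors and NEO1 the receptor neogenin that binds them. RGMA went from 9.28 and 9.23 FPKM to 6.46 and 6.60 FPKM, and RGMB from 8.79 and 8.39 FPKM to 6.65 and 6.41 FPKM. Their limma adjusted p-values were 0.00084, 0.00228 and 0.00434. NEO1 and RGMA lie on chromosome 15, and with the median of each chromosome removed NEO1 was at 0.0058 (limma adjusted p = 0.892), while RGMA kept its call (-0.22). ACVR1, a type I receptor, rose by 0.21 (limma adjusted p = 0.0158), a call that 5 of 16 alternatives ended. These were no filter (limma adjusted p = 0.0569), removal of the chromosome median (0.13, limma adjusted p = 0.0643), and leaving out control library 2 (limma adjusted p = 0.0521) or either ETS1 library (0.0891 and 0.0546).

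Of the secreted antagonists and modulators, 7 of 18 were tested, with 3 called higher and 1 lower (30.7% and 28.4% over all tested genes). CHRD (chordin, which binds BMPs outside the cell) rose 1.87-fold, from 1.72 and 1.67 FPKM to 3.28 and 3.06 FPKM (0.63, limma adjusted p = 0.0011). TWSG1, which acts with chordin, rose 1.49-fold, from 5.41 and 5.16 FPKM to 7.36 and 8.34 FPKM (0.49, limma adjusted p = 0.00315), and by 0.32 after removal of a length and GC trend (limma adjusted p = 0.00248). FSTL1, a follistatin-like secreted protein, rose by 0.20 (limma adjusted p = 0.00434), which did not pass with a length trend removed (0.088, limma adjusted p = 0.0603) or a length and GC trend removed (0.071, limma adjusted p = 0.0755). BMP1, a protease that cleaves chordin and not a BMP ligand, fell by 0.19 on the log2 scale (limma adjusted p = 0.0142). Its call was lost with the chromosome median removed (-0.037, limma adjusted p = 0.468) and without either ETS1 library (limma adjusted p = 0.0619 and 0.089), and its change was -0.28 with the length trend removed. NOG (noggin) had a change of -0.024 (limma adjusted p = 0.702).

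Of the other SMADs and their regulators, 6 of 14 tested rose and 2 fell (30.7% and 28.4% over all tested genes). SKIL, which represses SMAD target genes, rose 1.70-fold, from 2.86 and 2.28 FPKM to 3.97 and 4.78 FPKM (0.59, limma adjusted p = 0.00907), a call lost with no filter (limma adjusted p = 0.0586). SMURF2, a ubiquitin ligase that marks SMADs and receptors for breakdown, rose by 0.34 (limma adjusted p = 0.00152). PPM1A, a SMAD phosphatase, rose by 0.29 (limma adjusted p = 0.00367), and SMAD4, the common partner, by 0.26 (limma adjusted p = 0.0251). With a length and GC trend removed SKIL (0.30, limma adjusted p = 0.0193) and SMURF2 (0.17, limma adjusted p = 0.00546) were smaller and still passed, while PPM1A (0.00098, limma adjusted p = 0.985) and SMAD4 (0.044, limma adjusted p = 0.484) did not pass. With the length trend alone removed PPM1A stood at 0.13 (limma adjusted p = 0.035) and SMAD4 at 0.094 (limma adjusted p = 0.243). SMAD4 also lost its call with no filter (limma adjusted p = 0.0975), with the chromosome median removed (limma adjusted p = 0.113), with the replicate number as a block (limma adjusted p = 0.0542), without control library 2 (limma adjusted p = 0.0744) and without ETS1 library 2 (limma adjusted p = 0.116). SMAD9, the remaining SMAD that BMP receptors phosphorylate, had 5.79 and 5.15 FPKM against 5.71 and 6.61 FPKM, which overlap (limma adjusted p = 0.184).

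Of the other target genes, 5 of 15 tested rose and 4 fell, which is near the 30.7% and 28.4% over all tested genes. ID4 had the largest rise, given above. HEY1, a bHLH repressor that Notch also switches on, rose 1.50-fold, from 88.3 and 82.7 FPKM to 128.7 and 127.1 FPKM (0.58, limma adjusted p = 0.000726). JUNB, an AP-1 factor that many other signals induce, rose by 0.39 (limma adjusted p = 0.00146). MSX1, a homeobox factor that BMPs induce in the embryo, fell from 19.9 and 19.7 FPKM to 15.7 and 16.2 FPKM (-0.30, limma adjusted p = 0.00168), and stood at -0.16 after removal of a length and GC trend (limma adjusted p = 0.0115). SMAD7 (0.21, limma adjusted p = 0.074) and BAMBI (-0.075, limma adjusted p = 0.199), both feedback inhibitors, did not pass.

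Of 10 bHLH factors that ID proteins bind or that act with them, 6 were tested, with 2 called higher and 2 lower (30.7% and 28.4% over all tested genes). The called changes were small, from -0.26 to 0.14. Below the minimum, and named after their values were seen, TWIST2 had 0.294 and 0.308 FPKM in the controls and 1.17 and 1.02 FPKM with ETS1, from 14 and 16 reads against 79 and 68. MYOD1 had 1.11 and 0.766 against 0.532 and 0.549 FPKM. In the authors' deposited table their log2 fold changes are 1.58 (adjusted p = 0.000317) and -0.50 (adjusted p = 0.0423). TCF12, an E protein on chromosome 15, fell by 0.19 on the log2 scale (limma adjusted p = 0.00921), and with the median of its chromosome removed stood at 0.039 (limma adjusted p = 0.378). Its call was also lost without ETS1 library 1 (limma adjusted p = 0.0638), while removal of a length or a length and GC trend gave -0.32 and -0.37. TCF3, the E protein with the highest level (19.1 to 20.8 FPKM), had a change of 0.091 (limma adjusted p = 0.0486) that passed under 5 of 17 alternatives and under none of the 4 that each left out a library (limma adjusted p 0.0797 to 0.26). NEUROG2 (-0.26, limma adjusted p = 0.0314) and HES1 (0.14, limma adjusted p = 0.0475) each passed under 8 alternatives. Over all alternatives the change of NEUROG2 ran from -0.53 to -0.14, that of HES1 from 0.086 to 0.25 and that of TCF3 from 0.021 to 0.14. NEUROG2 did not pass without control library 2 (limma adjusted p = 0.116) or either ETS1 library (0.119 and 0.0978), nor HES1 without either control (0.128 and 0.08) or ETS1 library 2 (0.208).

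**Figure D5:**
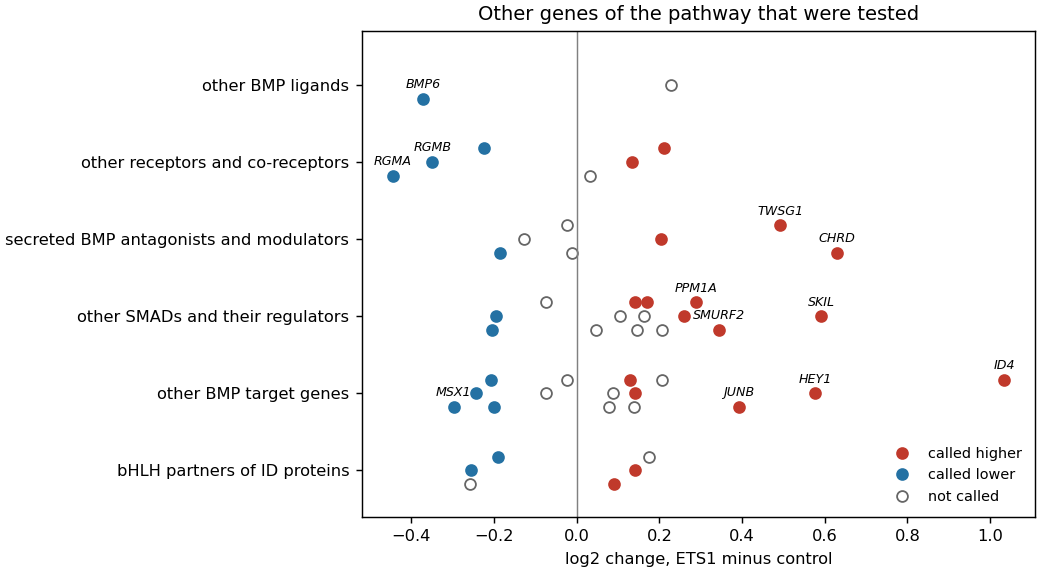
log2 change, ETS1 minus control (horizontal axis), of the tested genes of the 6 lists (rows), filled red where called higher, blue where called lower and open where not called. ID4 lies farthest to the right at 1.03 and RGMA farthest to the left at -0.45.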

How the data were processed

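Bulk RNA-seq of 4 libraries, 2 with ETS1 and 2 controls, was analysed from 2 deposited tables. The FPKM values are the authors'. The submitters' processing notes name HISAT2, HTSeq and DESeq2 and the builds hg38 and GRCh38, giving no roles. Annotation and strand are not given in the sources used here. The authors' comparison table, per the file headers, holds a signal (the mean normalized count), log2 fold changes with standard errors, and p-values, all as deposited, for 16652 genes.

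limma 3.58.1 (R 4.3.3) was run on log2(FPKM + 1) with a group term and an intensity trend, over genes with a mean of 1 FPKM or more. It had 2 residual and 2.84 prior degrees of freedom. A pseudocount of 1 understates changes of low genes. The fit was tested on simulated data. Reads were recovered from the steps of the FPKM values and the mean normalized counts: 99.3% of values of 2885 genes with a mean under 100 lay within 0.05 of a whole number. Positions come from GENCODE 29 and promoters from RefSeq, GRCh38.p14, matched by symbol for 9 of 10 genes.

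The members and lists were chosen with earlier results of these data known. The text names all 10 genes, ETS1, part of the markers and, of each list, up to 4 called genes, those farthest from 0. GDF6, GDF7, BMP2, INHBA, BMP3, TWIST2, MYOD1, NOG, SMAD7, SMAD9 and BAMBI were named after their values were seen. A further immune marker is not reported here. The alternatives were a pseudocount of 0.1, no filter or a minimum of 5, trimmed-mean scaling, quantile normalization, a replicate block, no intensity trend, the authors' values, voom on recovered reads, removal of chromosome medians, and leaving out each library. Added after seeing the data were a crossed block and the removal of a length, or a length and GC, trend (loess, span 0.5).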

Additional observations from a re-analysis of the deposited data

How the results depend on the processing

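ID2, SMAD5 and BMP7 kept direction and call under all 17 alternatives, and the authors' deposited table calls the same number of the 10 genes, 5 higher and 1 lower. With a minimum of 5 FPKM, which leaves 4 of the 10 genes, 2 were called higher and 1 lower. That fit tested 8215 genes and called 5562, with 2562 higher and 3000 lower. The main fit tested 14306 genes and called 8451, so the 2 totals have different bases. The number called lower was 2 under quantile normalization and with voom, where SMAD6 was added. Leaving out each library in turn gave 5790 to 7680 genes called, 4 to 5 of the 10 genes higher and 1 to 2 lower. The sign of SMAD6 reversed with the chromosome median removed (0.090), as did NEO1 (0.0058) and TCF12 (0.039), all on chromosome 15. The sign of ID3 reversed under quantile normalization (0.014), with the length trend removed (0.036), with the length and GC trend removed (0.093) and without control library 2 (0.034, beside -0.13 without control library 1). The cause of these changes was not tested.

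The labels give no meaning to the replicate numbers, and libraries of the same number did not deviate together (r = -0.12 across 8215 genes, which are not independent). With the replicate number as a block 7283 genes were called, with 5 of the 10 genes higher and 1 lower, and among the 10 genes, ETS1 and the called genes of the lists that were refitted, SMAD4, NEUROG2 (limma adjusted p = 0.0562) and TCF3 (limma adjusted p = 0.111) lost their call; the markers were not refitted. The crossed pairing gave 8677 calls, with 5 and 1 of the 10 genes. Of the 10 genes ID1 had the fewest reads, 193 to 309.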
